A study of Homo sapiens with 45 samples.

Results

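The genes described here are 10 genes of glycogen metabolism, chosen by name: PPP1R3C, PPP1R3B, GYG1, GYS1, GBE1, PGM1, UGP2, PYGL, PYGB and STBD1. They were 10 of the 60624 genes counted by RNA sequencing in 45 libraries of T47D, a human breast cancer cell line of luminal type that has the oestrogen receptor, and all 10 passed the filter on low counts in each of the 4 deposited tables. The study perturbed ZHX2, a zinc finger and homeobox transcription factor, and its stated questions were which hypoxia-inducible genes depend on ZHX2, or on its phase separation, and what 1,6-hexanediol does to expression. The 15 groups held 3 libraries each, counted in 4 separate tables.

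The first table, called here the shRNA table, held hypoxic cells carrying shZHX2, a hairpin against that gene, and cells carrying a control hairpin, shCtrl, in hypoxia and in normoxia. The hexanediol table held cells labelled Ctrl in hypoxia and cells given 0.5% or 1% 1,6-hexanediol for 24 h in hypoxia, an aliphatic alcohol used to disturb phase-separated condensates. The rescue table held hypoxic shZHX2 cells with ZHX2 forms labelled SA, PA or WT, hypoxic shZHX2 cells with vector, and hypoxic shCtrl cells with vector. What PA and SA stand for is not given in the labels. The sgRNA table held hypoxic cells labelled sgZHX2, sgCtrl, teton_sgZHX2 and teton_control. Only the shCtrl normoxia libraries came from cells outside hypoxia. Cells were grown in RPMI medium, and those that received lentivirus were selected with hygromycin or puromycin. Neither the oxygen level nor the length of the hypoxia nor the number of clones behind each line is given in the labels. Nothing in them states that the libraries of a group came from separate cultures, and the p-values measure the spread between these libraries, which may be technical.

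Glycogen is a branched glucose polymer that cells store and draw on when glucose or oxygen is short. PGM1 interconverts glucose 6-phosphate and glucose 1-phosphate, UGP2 makes UDP-glucose, GYG1 (glycogenin) starts the chain, GYS1 is the muscle-type glycogen synthase used by most tissues, and GBE1 adds the branches. PYGL and PYGB are the liver and brain types of glycogen phosphorylase, which releases glucose 1-phosphate; PPP1R3C and PPP1R3B are subunits that bring protein phosphatase 1 to glycogen, where it activates the synthase; STBD1 binds glycogen and anchors it to membranes. GYS1, PPP1R3C, GBE1 and PGM1 are known in other cells as genes that the hypoxia-inducible factors (HIF) switch on.

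HIF binds DNA at a core written ACGTG or GCGTG. The 250 bases before each gene's RefSeq start were therefore searched for those 5 letters on both strands. The sequences are from the RefSeq promoter table (GRCh38.p14), which held 9 of the 10 genes; PPP1R3B was not among them. At least 1 match was found for 8 of the 9, counting any window for the genes with several starts (1 of 3 windows of PGM1, 2 of 2 windows of UGP2), and PYGL had no match. Across 35116 promoters of this length 43.2% held a match. That share is per single window, while the 8 of 9 counts genes by any of their windows, so they are not like for like. PPP1R3C is shown whole because it changed most between hypoxia and normoxia: its window, chr10:91633072-91633321 on the minus strand, held 4 matches, and 3.22% of all promoters held 4 or more. For GYS1 (chr19:48993389-48993418, minus strand) and STBD1 (chr4:76306698-76306727, plus strand), which were also more than 2-fold higher in hypoxia, the 30 bases around the matches are shown. Capitals mark the matches; CACGT and CACGC are the same letters read on the other strand.
PPP1R3C: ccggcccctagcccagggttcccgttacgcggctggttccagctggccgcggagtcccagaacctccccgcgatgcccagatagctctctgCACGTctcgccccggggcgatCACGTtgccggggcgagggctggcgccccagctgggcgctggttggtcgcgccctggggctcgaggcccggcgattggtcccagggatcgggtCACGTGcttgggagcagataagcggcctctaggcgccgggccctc
GYS1: aCACGCggaaatccccgcccccggGCGTGg
STBD1: tgtggctctgtgtGCGTGacctgagccccg
In PPP1R3C the matches lay 159, 138, 45 and 44 bases before the start, and the last pair overlap as the palindrome CACGTG, which 6.34% of all promoters contained. In GYS1 they lay 108 and 85 bases before the start and in STBD1 22 bases. Genes that were lower in hypoxia held matches too. In GYG1 they lay 54, 43 and 42 bases before the start, the last pair again overlapping as CACGTG. UGP2 had 2 matches in 1 window and 1 in the other. A match is a description of the letters and not evidence of binding.

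Total counts per library were 14111216 to 27217814. The defining genes of luminal breast epithelium (9 markers, among them ESR1, GATA3, FOXA1, KRT8 and EPCAM) were summed at 3605 to 59226 CPM per library. Most of that sum came from the keratin genes KRT8, KRT18 and KRT19, so the luminal sums given below mainly follow these keratins. CPM here is the depth-scaled read count, a gene's counts over the library total scaled by edgeR's TMM factor. The 11 markers of fibroblasts, leukocytes, endothelium, basal epithelium, liver and muscle summed to 14.5 to 72.5 CPM, most of it the collagen gene COL1A1. In the shRNA table COL1A2, PECAM1, KRT5, ALB and MYH7 were at 0 in all 9 libraries, and in the hexanediol table all 11 had reads. In whole-culture RNA a lower level can come from fewer cells with the transcript or from less of it per cell, which cannot be told apart. ZHX2 itself was lower with the hairpin in both tables that used it, at 5.15 ± 1.53 CPM in shZHX2 and 18.8 ± 2.64 CPM in shCtrl cells (shRNA table, hypoxia) and at 6.86 ± 0.545 CPM in shZHX2 and 32.0 ± 1.99 CPM in shCtrl cells with vector (SD, n = 3 each). The rescue forms brought it to 80.5 ± 2.26 CPM with SA, 54.0 ± 0.436 CPM with PA and 72.3 ± 1.44 CPM with WT. In the sgRNA table the ZHX2 transcript was not lower, at 49.6 ± 1.69 CPM in sgZHX2 and 45.1 ± 1.36 CPM in sgCtrl cells and at 49.3 ± 1.34 CPM in teton_sgZHX2 and 47.5 ± 1.85 CPM in teton_control cells; the transcript level does not tell if the protein was lost.

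With TMM scaling, all 10 glycogen genes differed between hypoxic and normoxic shCtrl cells, upward in hypoxia for 7 and downward for 3. Under the other ways of processing described below 7 to 10 were called, and PPP1R3B, PYGL and PYGB changed sign in some of them. The largest rises were those of PPP1R3C, PGM1, GYS1 and STBD1, and the falls were those of UGP2, GYG1 and, by little, PPP1R3B. Differences were tested with edgeR's quasi-likelihood test with a Benjamini-Hochberg adjusted p under 0.05, over all genes of a table, as the threshold for a call. Hypoxia reached most genes: 79.9% of the 14903 tested were called, 43.1% higher and 36.8% lower, so a call as such does not set these genes apart. At 2-fold or more the glycogen genes gave 4 higher and 2 lower, beside 15.3% and 21.8% of all genes, and their median log2 fold change was 0.51 beside 0.12 for all genes.

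**Figure D1:**
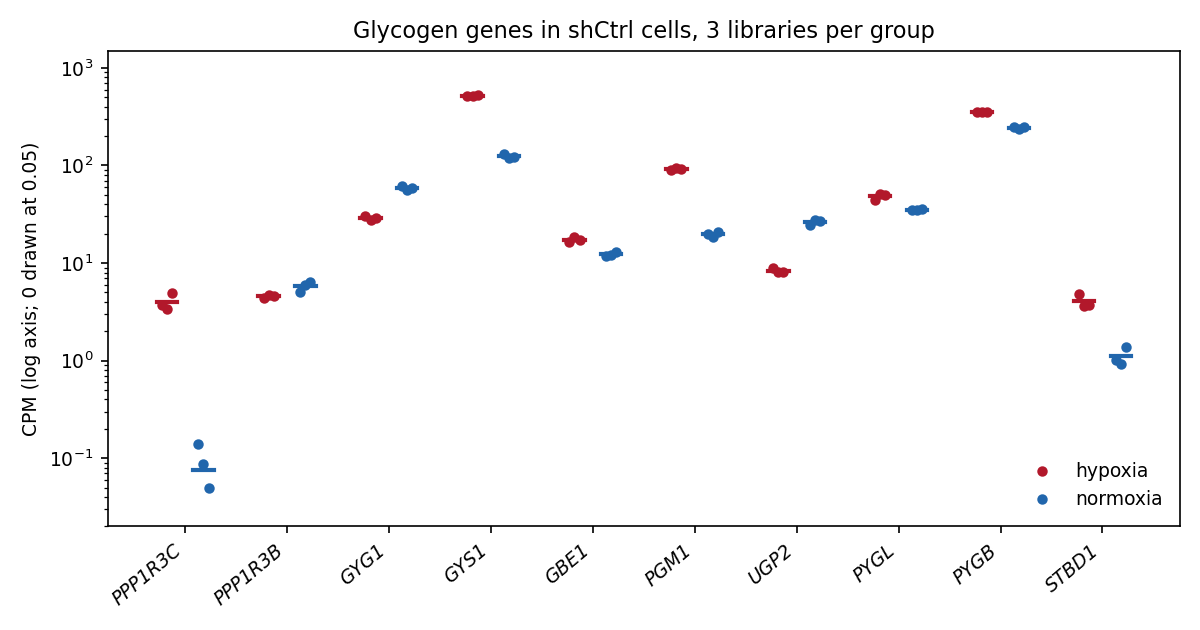
CPM on a log axis for the 10 glycogen genes in the 3 hypoxic (left, red) and 3 normoxic (right, blue) shCtrl libraries; points are libraries, short lines are means, and a value of 0 is drawn at 0.05. PPP1R3C shows the widest gap, at 3.35 to 4.93 CPM in hypoxia against 0 to 0.140 CPM in normoxia. With these TMM-scaled CPM the groups do not overlap for any of the 10 genes, as for 80.2% of all genes tested.

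PPP1R3C (ENSG00000119938, chromosome 10, 91628442 to 91633054, minus strand, GRCh38) had 57, 53 and 81 counts in hypoxia, against 3, 2 and 0 counts in normoxia. That is 3.71, 3.35 and 4.93 CPM in hypoxia and 0.140, 0.0878 and 0 CPM in normoxia. The gene was close to silent in every normoxic library and present in every hypoxic one. The fitted log2 fold change was 5.63 (SE 0.37, adjusted p = 9.34e-21), rank 12 from the top of all genes tested, and the ratio of summed counts per total count was 38.6 with an exact 95% binomial interval of 16.3 to 120.2 that covers counting error only. PPP1R3B (ENSG00000173281, chromosome 8, 9136255 to 9151574, minus strand), the targeting subunit best known from liver, stood at 4.43, 4.74 and 4.56 CPM in hypoxia, against 5.03, 6.01 and 6.37 CPM in normoxia. Its log2 fold change of -0.34 (SE 0.15, adjusted p = 0.0282) is the smallest of the 10 in size. The call was lost without normoxia library 2 or 3 or without hypoxia library 1 or 3 (-0.34 to -0.27 in those 4 fits, adjusted p = 0.0622 to 0.12) and with DESeq2 (adjusted p = 0.0502), and after a correction for GC content and gene length the value was 0.05 without a call.

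Of the genes that build glycogen, PGM1 (chromosome 1, 63593276 to 63660245, plus strand) had 89.6, 94.6 and 92.8 CPM in hypoxia, against 19.7, 18.5 and 20.8 CPM in normoxia. GYS1 (chromosome 19, 48968125 to 48993310, minus strand) had 514.9, 513 and 523 CPM in hypoxia, against 132, 121 and 122 CPM in normoxia. On the TMM scale both were more than 3 times as high in every hypoxic as in every normoxic library, with log2 fold changes of 2.23 (SE 0.05) for PGM1 and 2.05 (SE 0.03, adjusted p = 6.71e-53) for GYS1. With library-size scaling PGM1 was at 1.75 and GYS1 at 1.57, both called. GBE1 (chromosome 3, 81489699 to 81762161, minus strand) rose less, at 16.6, 18.5 and 17.1 CPM in hypoxia and 11.7, 12.0 and 13.1 CPM in normoxia (log2 fold change 0.50, SE 0.09). The synthesis pathway did not move as one. UGP2 (chromosome 2, 63840940 to 63891562, plus strand), between PGM1 and GYS1 in the pathway, had 8.79, 8.03 and 8.15 CPM in hypoxia, against 24.5, 27.8 and 26.7 CPM in normoxia (log2 fold change -1.66, SE 0.10, adjusted p = 1.12e-23). GYG1, the primer (chromosome 3, 148991341 to 149027668, plus strand), had 30.1, 27.8 and 29.1 CPM in hypoxia, against 61.5, 55.9 and 58.2 CPM in normoxia (log2 fold change -1.01, SE 0.06). Every hypoxic library was below every normoxic one for both.

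The phosphorylases rose slightly with TMM scaling, a direction that PYGB did not keep after the GC and length correction and PYGL did not keep with library-size scaling. PYGL (chromosome 14, 50857891 to 50944736, minus strand) had 43.8, 51.2 and 50.2 CPM in hypoxia, against 35.0, 34.9 and 35.6 CPM in normoxia (log2 fold change 0.46, SE 0.06). PYGB (chromosome 20, 25248069 to 25298014, plus strand) had 351, 350.2 and 353 CPM in hypoxia, against 249, 238 and 247 CPM in normoxia (log2 fold change 0.52, SE 0.03). STBD1 (chromosome 4, 76306026 to 76311599, plus strand) had 4.82, 3.61 and 3.71 CPM in hypoxia, against 1.02, 0.922 and 1.39 CPM in normoxia (log2 fold change 1.85, SE 0.23, adjusted p = 3.67e-10). Its low level rose in all 3 libraries, but 58.1% of its exon bases are shared with the read-through gene FAM47E-STBD1 on the same strand, and how such reads were assigned is not given.

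Some of these values moved with the processing. Across all genes the log2 fold changes in hypoxia followed GC content (Spearman 0.694 over 14816 genes, which are not independent), and after the GC and length correction PYGB was at -0.31 (called), PYGL was at 0.09 without a call, GBE1 at 1.14, GYS1 at 1.21 and UGP2 at -0.39, all 3 called. Scaling by library size alone shifted the median of all genes by -0.48 and gave 29.6% of the calls as higher, against 53.9% with TMM scaling; PYGL (-0.02), PYGB (0.04) and GBE1 (0.02) were then not called, and PPP1R3B was at -0.83, called. PPP1R3C, PGM1, STBD1, GYG1, GYS1 and UGP2 kept their direction and their call under all 13 alternatives run for this comparison. The size varied, from 1.21 to 2.09 for GYS1 and from -2.15 to -0.39 for UGP2. Mitochondrial genes took 9.12% to 9.57% of counts in hypoxia and 4.55% to 4.76% in normoxia. Of the 9 luminal markers 7 were higher and 2 lower in hypoxia, with a sum of 58545 to 59226 CPM in hypoxia and 22581 to 24330 CPM in normoxia, and the 11 markers of other cell types summed to 47.4 to 52.2 CPM in hypoxia and 33.6 to 37.4 CPM in normoxia. The part of these differences in the result was not tested.

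Per length, the genes differed widely in level. As CPM per kilobase of exon (RPKM) in hypoxic shCtrl cells of the shRNA table, GYS1 stood at 121.8, PYGB at 78.5, PGM1 at 21.9, PYGL at 10.1, GYG1 at 8.26, GBE1 at 3.37, PPP1R3C at 1.58, UGP2 at 1.28, STBD1 at 1.18 and PPP1R3B at 0.793. In normoxia PYGB led at 54.7 RPKM, with GYS1 at 29.4 and GYG1 at 16.7 RPKM, while PPP1R3C was last at 0.0300 RPKM. The order depended on the table. In the hypoxic Ctrl cells of the hexanediol table PYGL led at 45.5 RPKM, with UGP2 at 15.7, PGM1 at 12.9, GYS1 at 11.8 and PYGB at 10.3 RPKM. In the hypoxic shCtrl cells of the rescue table GYS1 led at 100.8 RPKM, with PYGB at 42.0, GBE1 at 29.1 and PYGL at 20.5 RPKM, and PPP1R3C was last at 0.288 RPKM. The tables were scaled separately, so these levels are descriptions and were not tested between tables.

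The shZHX2 hairpin was compared with shCtrl in hypoxia in the shRNA table and again, with vector, in the rescue table. In the shRNA table PPP1R3C, PPP1R3B and GBE1 were higher (3 of 10), PYGL, UGP2, PYGB and GYS1 were lower (4 of 10) and 3 had no call, where 66.8% of all genes were called, 33.6% higher and 33.2% lower. In the rescue table PPP1R3C, PYGL, PGM1, UGP2, GYS1, PPP1R3B and GBE1 were lower (7 of 10) and GYG1 and PYGB higher (2 of 10), where 69.2% of all genes were called, 33.9% higher and 35.3% lower. Their median log2 fold change was 0.04 in the shRNA table and -0.68 in the rescue table, with all-gene medians of 0.02 and -0.01.

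PYGL, UGP2 and GYS1 were lower with shZHX2 in both tables. PYGL had 12.9, 11.5 and 14.5 CPM in shZHX2 cells, against 43.8, 51.2 and 50.2 CPM in shCtrl cells of the shRNA table, a log2 fold change of -1.90 (SE 0.07, adjusted p = 9.21e-31). With vector in the rescue table it had 37.7, 36.4 and 37.5 CPM in shZHX2 cells, against 100.2, 94.9 and 99.6 CPM in shCtrl cells (-1.40, SE 0.04). Every knockdown library was below every control library in both tables. UGP2 had log2 fold changes of -0.78 (SE 0.12) in the shRNA table and -0.83 (SE 0.06) in the rescue table, and GYS1 of -0.42 (SE 0.03) and -0.79 (SE 0.03). In the shRNA table GYS1 was at -0.18 with library-size scaling and -0.21 after the GC and length correction, still called.

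PPP1R3C, PPP1R3B, GBE1 and PYGB went opposite ways in the 2 tables. PPP1R3C had 7.51, 8.49 and 7.23 CPM in shZHX2 cells, against 3.71, 3.35 and 4.93 CPM in shCtrl cells of the shRNA table (log2 fold change 0.95, SE 0.17, adjusted p = 2.83e-06). Its hypoxic level was thus higher with the hairpin. With vector, in the rescue table, PPP1R3C had 4, 0 and 1 counts in shZHX2 cells, against 10, 16 and 18 counts in shCtrl cells (log2 fold change -3.19, SE 0.57, adjusted p = 1.02e-06). Groups did not overlap in either table, but the rescue-table level was under 1 CPM throughout; the summed counts were 9.87 times lower per total count with shZHX2, with an exact binomial interval of 3.93 to 31.9. PPP1R3B was at 0.88 (SE 0.14) in the shRNA table and -0.56 (SE 0.06) in the rescue table on the log2 scale, GBE1 at 0.46 (SE 0.08) and -0.37 (SE 0.03), and PYGB at -0.45 (SE 0.03) and 0.64 (SE 0.03). After the GC and length correction GBE1 in the rescue table was at -0.22 and PYGB in the shRNA table at -0.25, both called. Each fold change was computed within its own table, and the difference between the tables was not tested. PGM1 was at -0.83 (SE 0.06) in the rescue table and at -0.05 (SE 0.05, adjusted p = 0.348, no call) in the shRNA table. GYG1 was at 0.86 (SE 0.07) in the rescue table and at 0.13 (SE 0.06, adjusted p = 0.0553, no call) in the shRNA table. In the shRNA table library-size scaling shifted the median of all genes by 0.23 and gave 67.6% of calls as higher, against 50.3% with TMM scaling; PGM1 (0.18), GYG1 (0.37) and STBD1 (0.47) were then called higher, and PYGB was at -0.21 and GBE1 at 0.70.

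The rescue groups set shZHX2 cells given a ZHX2 form against those given vector. With WT, 7 of the 10 glycogen genes were higher than with vector (PPP1R3C, UGP2, PYGL, GBE1, PGM1, PPP1R3B and GYS1) and PYGB was lower, where 69.7% of all genes were called, 35.1% higher and 34.6% lower. These are the 7 genes that were lower in shZHX2 cells with vector than in shCtrl cells, and PYGB was higher there. Both comparisons use the same vector libraries, so a deviation in those libraries gives opposite signs in them. The median over the 10 was 0.77 on the log2 scale, with an all-gene median of -0.002.

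**Figure D2:**
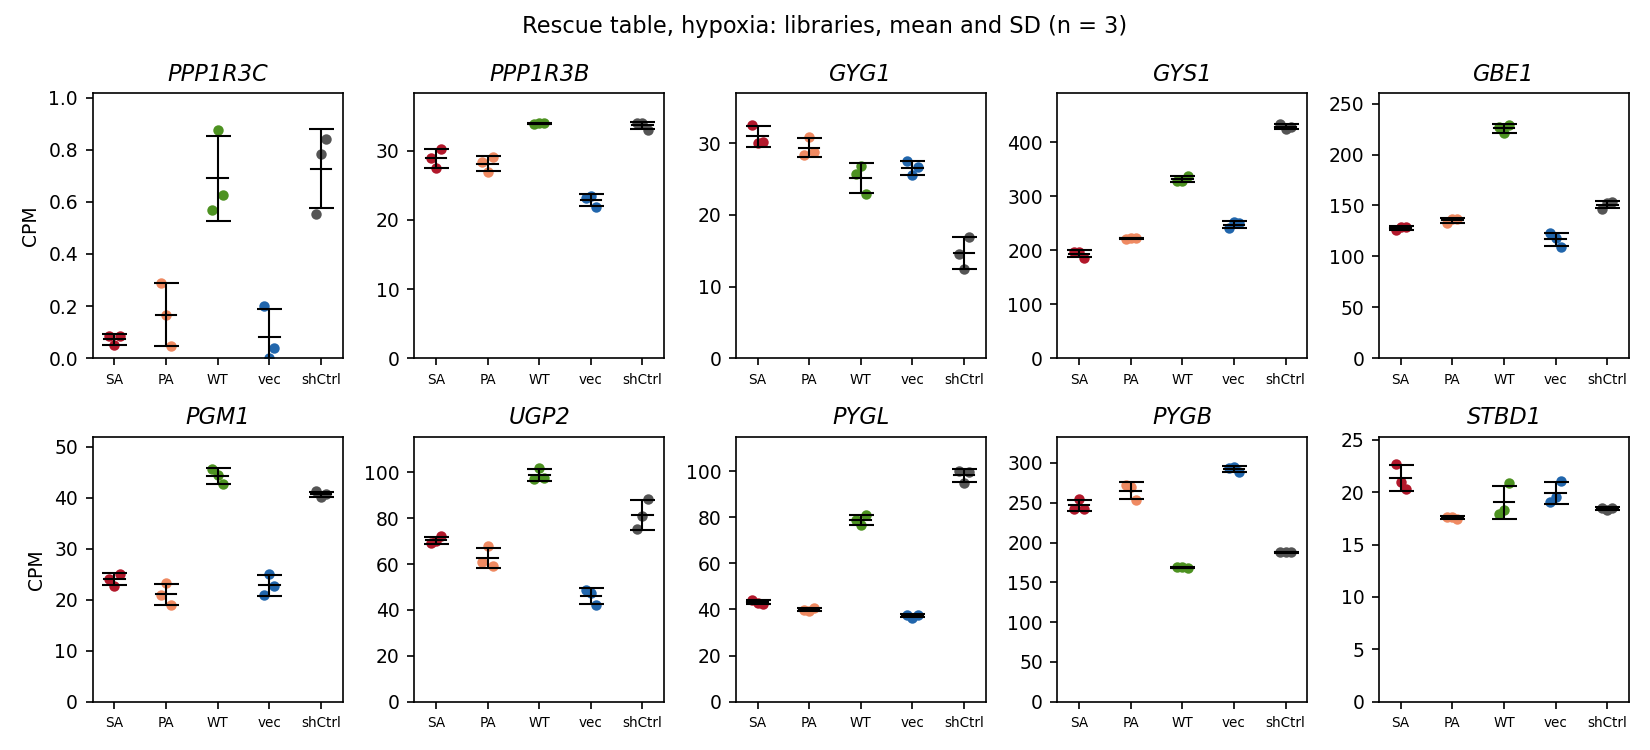
CPM per library (coloured points) with mean and SD (black, n = 3) for the 10 glycogen genes in the rescue table, in hypoxic shZHX2 cells with ZHX2 SA, PA or WT or with vector (vec) and in shCtrl cells with vector (shCtrl); axes start at 0. For PYGL, PGM1 and PPP1R3C the SA and PA libraries lie near the vector libraries and below every WT library.

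PYGL had 78.7, 76.7 and 80.8 CPM with WT, against 37.7, 36.4 and 37.5 CPM with vector (log2 fold change 1.08, SE 0.04, adjusted p = 1.66e-37). PGM1 had 45.8, 44.6 and 42.7 CPM with WT, against 20.8, 25.0 and 22.6 CPM with vector (0.96, SE 0.06). Each WT library was above each vector library for both. UGP2 had 97.1, 102 and 97.7 CPM with WT, against 48.5, 47.6 and 42.3 CPM with vector (1.10, SE 0.06). GBE1 had 227, 221 and 229 CPM with WT, against 122.6, 118 and 109.6 CPM with vector (0.96, SE 0.03). PYGB moved the other way, with 168.6, 168.7 and 168.0 CPM with WT, against 294, 295 and 288 CPM with vector (-0.79, SE 0.03; -0.51 after the GC and length correction, called). PPP1R3C had 12, 15 and 11 counts with WT, against 4, 0 and 1 counts with vector (log2 fold change 3.08, SE 0.59, adjusted p = 3.55e-06), a ratio of summed counts of 8.45 with an exact binomial interval of 3.32 to 27.5; without vector library 1 the fitted value was 4.66. GYS1 rose by 0.42 on the log2 scale (SE 0.03; 0.71 after the GC and length correction) and PPP1R3B by 0.57 (SE 0.06).

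Set against shCtrl cells with vector, cells with WT gave no call for PPP1R3C (-0.10, 95% interval -0.85 to 0.64), PPP1R3B (0.01, -0.10 to 0.12), STBD1 (0.04, -0.09 to 0.18) and PGM1 (0.12, 0.01 to 0.24, adjusted p = 0.0519). They had GYS1 lower (-0.37, SE 0.03; -0.24 after the GC and length correction) and PYGL lower (-0.32, SE 0.04), and GBE1 higher (0.58, SE 0.03), UGP2 higher (0.28, SE 0.06; 0.17 with library-size scaling) and GYG1 higher (0.78, SE 0.07). PYGB was at -0.16 (-0.01 without a call after the GC and length correction). In this comparison 3 of the 10 were higher and 3 lower, and 54.2% of all genes were called, 27.1% higher and 27.1% lower. With GC and length taken out PGM1 was called (0.13). Of the calls, 34.1% of the calls were higher with library-size scaling, against 50.1% with TMM, with the median of all genes shifted by -0.11. GYG1 was higher than in shCtrl cells in shZHX2 cells with vector and with WT alike, at 27.6, 25.6 and 26.6 CPM with vector and 25.8, 26.8 and 22.9 CPM with WT, against 14.6, 12.4 and 17.0 CPM in shCtrl cells, and WT against vector gave no call for it (-0.08, SE 0.07, adjusted p = 0.293).

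For the 8 genes called with WT, the changes over vector were smaller in size with PA and with SA, although the ZHX2 transcript was above that of shCtrl cells with both. PA raised 3 of the 10 (UGP2 0.45, PPP1R3B 0.30 and GBE1 0.22 on the log2 scale) and lowered 3 (STBD1 -0.18, GYS1 -0.16 and PYGB -0.14), where 47.6% of all genes were called, 24.7% higher and 22.9% lower. SA raised 5 (UGP2 0.61, PPP1R3B 0.34, GYG1 0.22, PYGL 0.21 and GBE1 0.14) and lowered 2 (GYS1 -0.36 and PYGB -0.24), where 41.7% of all genes were called, 20.2% higher and 21.5% lower. GYG1 and STBD1, which had no call with WT (-0.08 and -0.07), were at 0.14 and -0.18 with PA and 0.22 and 0.10 with SA. PPP1R3C had no call with SA (-0.04, SE 0.92) or with PA (1.14, SE 0.76, adjusted p = 0.225). The ratio of its summed counts to vector was 0.969 with SA (exact interval 0.223 to 4.21) and 2.55 with PA (0.836 to 9.24), and without vector library 1 the PA value was called at 2.71. After the GC and length correction GBE1 (0.01), PYGB (-0.05) and GYG1 (0.15) lost their calls with SA, while GYS1 was at -0.16, called. With PA, GYS1 (-0.02), PYGB (-0.01) and STBD1 (-0.15) lost theirs, PYGL (0.14) and GYG1 (0.16) gained one, and UGP2 (0.19), PPP1R3B (0.20) and GBE1 (0.08) stayed called. With library-size scaling 76.4% of the PA calls were higher, against 52.0% with TMM (median of all genes shifted by 0.15), and GYS1 (-0.01), PYGB (0.01) and STBD1 (-0.03) were not called, while PYGL (0.25) and GYG1 (0.29) were.

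The direct comparison with WT tests whether the libraries of the forms differ. Their ZHX2 transcript also differed, at 80.5 CPM with SA, 54.0 CPM with PA and 72.3 CPM with WT. Form, ZHX2 level and cell line cannot be told apart here. PA against WT gave 7 of the 10 lower and 2 higher, and SA against WT gave the same 7 lower and 3 higher, where 66.9% of all genes were called for PA, 33.2% higher and 33.7% lower, and 64.1% for SA, 32.1% higher and 32.0% lower. The 7 were PPP1R3C, PPP1R3B, GYS1, GBE1, PYGL, PGM1 and UGP2, and PYGB and GYG1 were higher with both; STBD1 was higher with SA (0.17, SE 0.07, adjusted p = 0.0227), a call lost without WT library 1 or 2 or SA library 1, with DESeq2 and after the GC and length correction. With PA it had no call (-0.11, SE 0.07, adjusted p = 0.14). PYGL had 44.0, 42.8 and 42.5 CPM with SA and 39.8, 39.4 and 40.6 CPM with PA, against 78.7, 76.7 and 80.8 CPM with WT, so that no SA or PA library reached the lowest WT library. PGM1 had 24.1, 22.8 and 25.1 CPM with SA and 21.0, 23.2 and 19.0 CPM with PA, against 45.8, 44.6 and 42.7 CPM with WT (log2 fold changes -0.88 with SA and -1.07 with PA, SE 0.06 each). GYS1 had 197, 197 and 186 CPM with SA and 220.5, 222 and 222 CPM with PA, against 329, 328 and 338 CPM with WT, and SA was also below vector. PPP1R3C had 2, 1 and 2 counts with SA and 7, 4 and 1 counts with PA, against 12, 15 and 11 counts with WT (log2 fold changes -3.12, SE 0.59, with SA and -1.95, SE 0.49, with PA). The medians over the 10 were -0.64 with SA and -0.62 with PA on the log2 scale, with all-gene medians of 0.01 and 0.002. Both comparisons share the WT libraries. With library-size scaling 70.6% of the PA calls were higher, against 49.6% with TMM (median of all genes shifted by 0.25), PPP1R3B lost its call with PA (-0.02), and GYS1 was at -0.33, GBE1 at -0.49 and UGP2 at -0.41. UGP2 with SA was at -0.31 after the GC and length correction.

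In several comparisons of the rescue table the luminal markers moved in the direction of most glycogen genes. All 9 were lower in shZHX2 than in shCtrl cells with vector, all 9 were higher with WT than with vector, and all 9 were lower with PA and with SA than with WT. PYGB went the other way in each of these. Over vector, 6 markers were higher and 2 lower with PA, and 5 higher and 0 lower with SA. Of the glycogen genes 3 were higher and 3 lower with PA, and 5 higher and 2 lower with SA. Their sum was 32478 to 32925 CPM with SA, 29220 to 29436 CPM with PA, 44221 to 44891 CPM with WT and 30978 to 32277 CPM with vector in shZHX2 cells, and 46387 to 47894 CPM in shCtrl cells. With shZHX2 in the shRNA table, all but 1 of the 9 were lower, at 27352 to 27626 CPM in shZHX2 and 58545 to 59226 CPM in shCtrl hypoxic cells. The 11 markers of other cell types summed to 16.1 to 18.8 CPM with SA, 19.6 to 22.1 CPM with PA, 14.5 to 16.7 CPM with WT, 29.3 to 31.8 CPM with vector and 19.0 to 22.3 CPM in shCtrl cells of the rescue table. In the shRNA table they summed to 69.7 to 72.5 CPM in shZHX2 and 47.4 to 52.2 CPM in shCtrl hypoxic cells. The mitochondrial share in the rescue table was 1.12% to 1.19% with SA, 1.16% to 1.26% with PA, 0.312% to 0.333% with WT, 0.785% to 0.807% with vector and 0.749% to 0.778% in shCtrl cells. In hypoxic cells of the shRNA table it was 11.9% to 12.4% with shZHX2 and 9.12% to 9.57% with shCtrl. The part of these differences in the results was not tested.

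**Figure D3:**
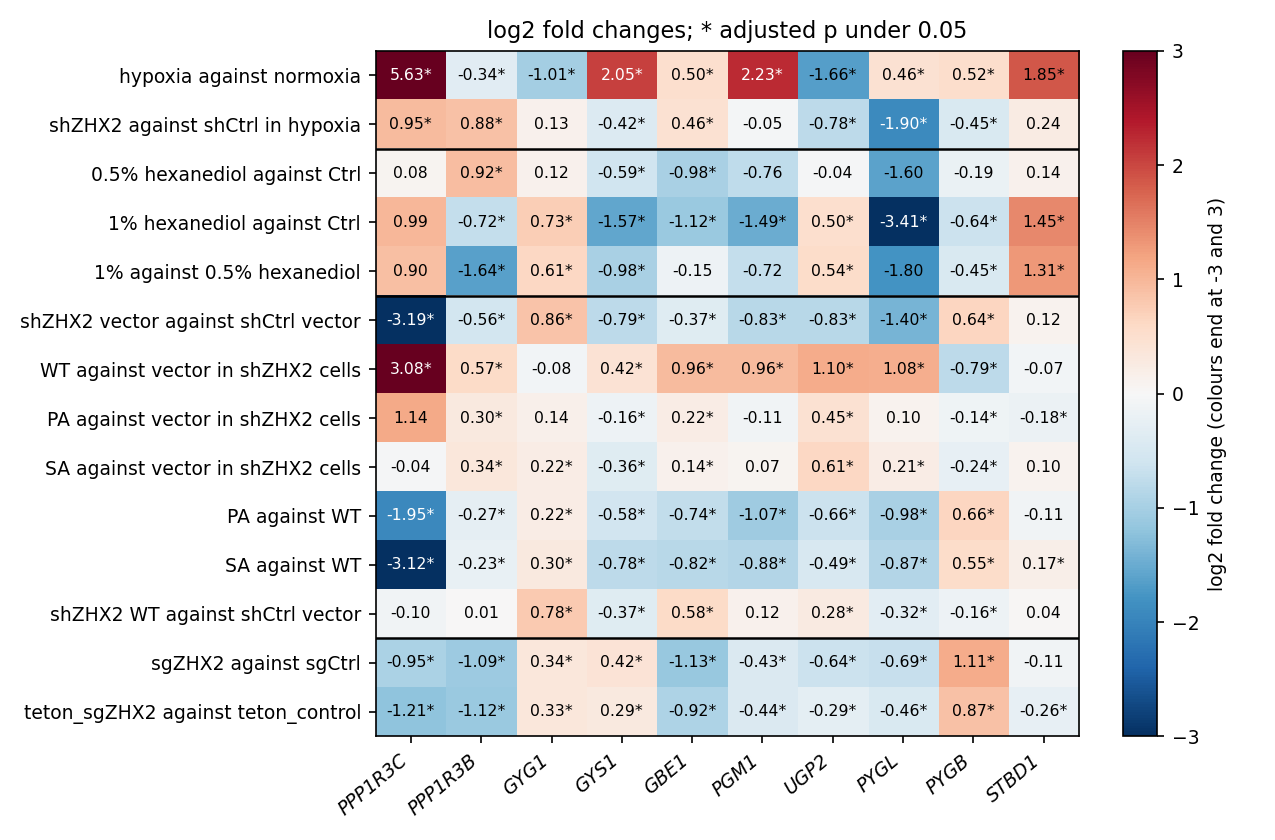
Fitted log2 fold changes of the 10 glycogen genes (columns) in 14 comparisons (rows), with an asterisk where the adjusted p was under 0.05; lines part the shRNA, hexanediol, rescue and sgRNA tables, red is higher in the first-named group, and colours end at -3 and 3. PPP1R3C is at 5.63 in hypoxia, 0.95 with shZHX2 in the shRNA table and -3.19 with shZHX2 in the rescue table, while PYGL is below 0 with shZHX2 in both tables, at both hexanediol doses and with guides in both pairs.

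With guides against ZHX2, 6 of the 10 were lower in sgZHX2 than in sgCtrl cells (GBE1, PPP1R3B, PPP1R3C, PYGL, UGP2 and PGM1) and 3 were higher (PYGB, GYS1 and GYG1), where 73.1% of all genes were called, 37.0% higher and 36.1% lower. The teton pair gave 7 lower, STBD1 with those 6, and the same 3 higher, where 69.1% of all genes were called, 34.4% higher and 34.7% lower. STBD1 (-0.26, SE 0.09) lost its call without teton_control library 1 or teton_sgZHX2 library 2 and with DESeq2. The medians over the 10 were -0.53 for sgZHX2 and -0.37 for teton_sgZHX2, with all-gene medians of 0.01 and -0.002. GBE1 had 91.0, 91.1 and 88.1 CPM in sgZHX2 cells, against 194, 199 and 197 CPM in sgCtrl cells (log2 fold change -1.13, SE 0.03, adjusted p = 9.73e-33). The teton pair was alike in direction, and it had 105, 98.3 and 102.8 CPM in teton_sgZHX2 cells, against 189.8, 199 and 191 CPM in teton_control cells (-0.92, SE 0.03). Every guide library was below every control library. PPP1R3B had 16.7, 16.7 and 13.5 CPM in sgZHX2 cells, against 34.4, 32.8 and 32.5 CPM in sgCtrl cells, and 16.1, 15.9 and 15.4 CPM in teton_sgZHX2 cells, against 33.6, 34.5 and 35.2 CPM in teton_control cells (log2 fold changes -1.09 and -1.12, SE 0.06 each). PYGB was at the other end, with 426, 408 and 423 CPM in sgZHX2 cells, against 190.4, 194 and 198 CPM in sgCtrl cells (1.11, SE 0.03), and 374, 379 and 369 CPM in teton_sgZHX2 cells, against 208, 207 and 199 CPM in teton_control cells (0.87, SE 0.03).

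PPP1R3C had 8, 19 and 13 counts in sgZHX2 cells, against 23, 32 and 22 counts in sgCtrl cells, and 23, 18 and 9 counts in teton_sgZHX2 cells, against 39, 44 and 36 counts in teton_control cells. Groups did not overlap in either pair, and the log2 fold changes were -0.95 (SE 0.29, adjusted p = 0.00394) for sgZHX2 and -1.21 (SE 0.26, adjusted p = 5.47e-05) for teton_sgZHX2. PYGL (-0.69 and -0.46, SE 0.03 each) and PGM1 (-0.43 and -0.44, SE 0.05 each) were lower in both, and GYG1 was higher in both (0.34 and 0.33, SE 0.05 each). GYS1 (0.42 and 0.29) and UGP2 (-0.64 and -0.29) rest on how GC content is handled: after the GC and length correction GYS1 was at -0.03 and -0.04 without a call and UGP2 at -0.13, called, and 0.06, without a call. The correction also took PPP1R3C in sgZHX2 cells to -0.61 without a call (adjusted p = 0.065) and PYGB to 0.67 and 0.55, both called. Across genes the log2 fold changes followed GC content with a Spearman correlation of 0.563 for sgZHX2 and 0.467 for teton_sgZHX2.

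The sgZHX2 effect was larger than the teton_sgZHX2 effect for 5 of the 10, tested as the difference of the 2 effects, where 20.3% of all genes were called, 8.33% higher and 12.0% lower. UGP2 (-0.35, SE 0.05), PYGL (-0.22, SE 0.04) and GBE1 (-0.21, SE 0.04) were lower by more in the sg pair, and PYGB (0.24, SE 0.04) and GYS1 (0.12, SE 0.03) were higher by more; GBE1 and GYS1 lost this call after the GC and length correction, which took UGP2 to -0.19 and PYGB to 0.12, both called, and GYS1 lost it without sgCtrl library 1 or sgZHX2 library 3. The summed luminal markers were 39408 to 40296 CPM in sgZHX2 and 38374 to 39080 CPM in sgCtrl cells, and 35859 to 37153 CPM in teton_sgZHX2 and 36129 to 36512 CPM in teton_control cells. Single markers did change: of the 9, 2 were called higher and 4 lower in sgZHX2 cells, and 1 higher and 5 lower in teton_sgZHX2 cells. The 11 markers of other cell types summed to 59.9 to 60.7 CPM in sgZHX2 and 31.1 to 33.4 CPM in sgCtrl cells, with COL1A1 the highest of them, and to 52.6 to 54.0 CPM in teton_sgZHX2 and 32.9 to 34.8 CPM in teton_control cells. Mitochondrial genes took 1.67% to 1.71% of counts in sgZHX2 and 2.51% to 2.71% in sgCtrl cells, and 1.69% to 1.82% in teton_sgZHX2 and 2.83% to 2.95% in teton_control cells. The part of these differences in the results was not tested.

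More of the glycogen genes were called at the higher dose of 1,6-hexanediol. At 1%, 6 of the 10 were lower than in Ctrl (PYGL, GYS1, PGM1, GBE1, PPP1R3B and PYGB) and 3 were higher (STBD1, GYG1 and UGP2), where 62.5% of all genes were called, 30.2% higher and 32.3% lower. At 0.5%, 1 was higher (PPP1R3B) and 2 were lower (GBE1 and GYS1), where 39.0% of all genes were called, 19.4% higher and 19.6% lower. The medians over the 10 were -0.12 at 0.5% and -0.68 at 1%, with all-gene medians of 0.002 and -0.04. The second library of each dose stood apart from the other two of its group: it was the lowest of its group for 8 of the 10 genes at 0.5% and for 6 of the 10 at 1%, against 3 of the 10 for the second Ctrl library. Values without both second treated libraries are given beside those with all 9 libraries for the genes described next.

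**Figure D4:**
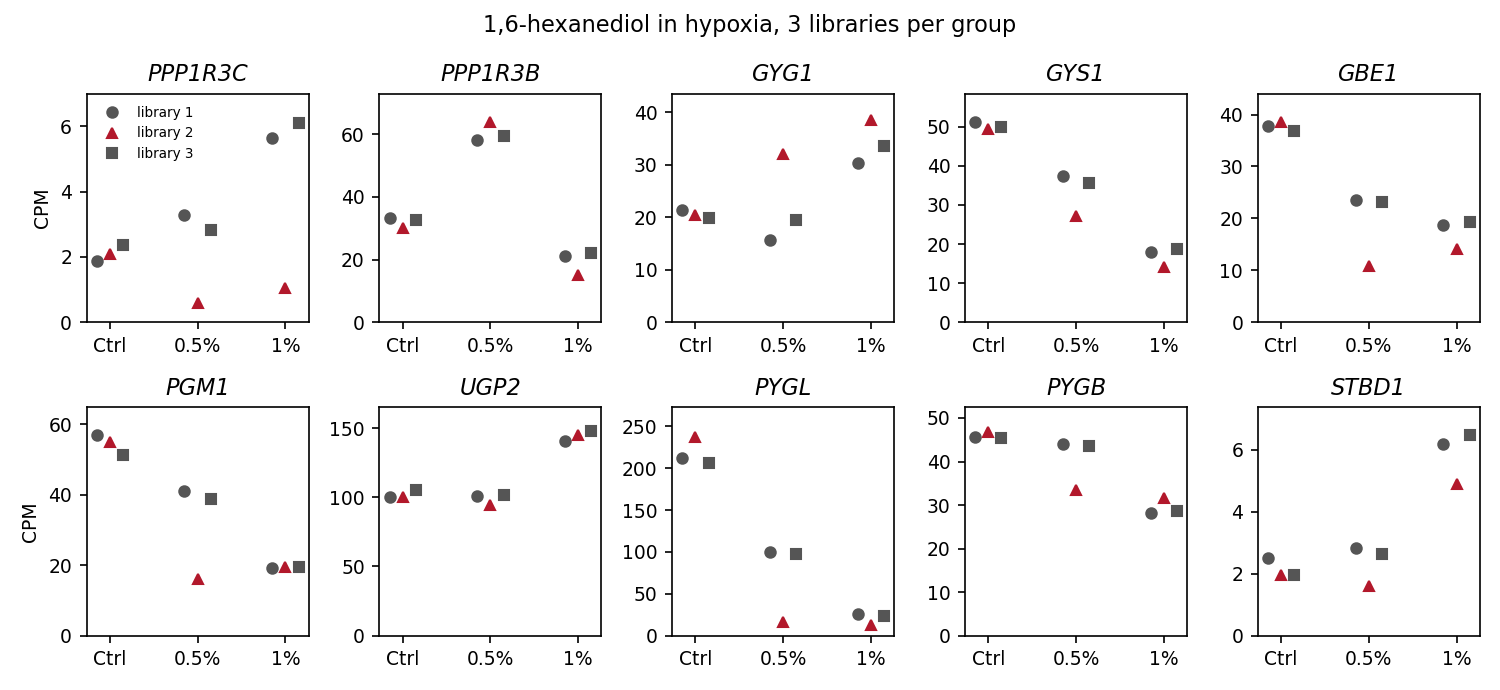
CPM of the 10 glycogen genes in hypoxic Ctrl cells and in cells given 0.5% or 1% 1,6-hexanediol, with the library number shown by shape and the second library in red; axes start at 0. PYGL is lower at each dose than in every Ctrl library, and the second 0.5% library lies far below the other two for PYGL, PGM1, GBE1 and PPP1R3C.

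PYGL had 212, 237 and 206 CPM in Ctrl, 100.5, 16.8 and 97.9 CPM at 0.5% and 25.7, 12.5 and 23.9 CPM at 1%. Treated libraries were below every Ctrl library at both doses, and the second library was the lowest at each dose. The log2 fold change over Ctrl was -1.60 (SE 0.63, adjusted p = 0.0919) at 0.5% and -3.41 (SE 0.69, adjusted p = 0.00492) at 1%. Without both second treated libraries it was -1.14 at 0.5% and -3.14 at 1%, and both were called. GYS1 had 51.3, 49.4 and 49.9 CPM in Ctrl, 37.4, 27.1 and 35.7 CPM at 0.5% and 18.1, 14.1 and 18.6 CPM at 1%. The 3 groups did not overlap, with log2 fold changes over Ctrl of -0.59 (SE 0.12) at 0.5% and -1.57 (SE 0.12, adjusted p = 7.13e-08) at 1%, or -0.46 and -1.45 without both second treated libraries, both called. PGM1 had 57.0, 55.0 and 51.2 CPM in Ctrl, 41.1, 15.9 and 38.9 CPM at 0.5% and 19.3, 19.4 and 19.4 CPM at 1% (log2 fold change at 1% -1.49, SE 0.32). Without both second treated libraries PGM1 was at -0.44 at 0.5%, then called, and at -1.49 at 1%. GBE1 had 37.7, 38.7 and 36.8 CPM in Ctrl, 23.5, 10.8 and 23.2 CPM at 0.5% and 18.7, 14.1 and 19.3 CPM at 1% (-0.98 and -1.12, SE 0.26 each; -0.69 and -0.99 without both second treated libraries, both called). The call of GBE1 at 0.5% was lost without Ctrl library 2 (adjusted p = 0.0505).

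PPP1R3B went up at the lower dose and down at the higher one. It had 33.3, 30.0 and 32.5 CPM in Ctrl, 58.0, 63.9 and 59.6 CPM at 0.5% and 21.2, 15.1 and 22.1 CPM at 1%, and the 3 groups did not overlap. The log2 fold changes over Ctrl were 0.92 (SE 0.12, adjusted p = 2.37e-05) at 0.5% and -0.72 (SE 0.12) at 1%, and that of 1% against 0.5% was -1.64 (SE 0.12, adjusted p = 3.87e-08), or -1.44 without both second treated libraries, which gave 0.88 at 0.5% and -0.56 at 1% over Ctrl, all called. PPP1R3C had 1.88, 2.10 and 2.35 CPM in Ctrl, 3.29, 0.596 and 2.82 CPM at 0.5% and 5.65, 1.04 and 6.09 CPM at 1%. At each dose 2 libraries were above Ctrl and the second was below it, so the fit with all libraries gave no call at 1% (0.99, SE 0.72, adjusted p = 0.276), while without both second treated libraries PPP1R3C was called at 0.53 (0.5%) and 1.47 (1%). STBD1 had 2.50, 1.95 and 1.96 CPM in Ctrl and 6.18, 4.89 and 6.46 CPM at 1% (log2 fold change 1.45, SE 0.22; 1.56 without both second treated libraries), and 2.84, 1.59 and 2.62 CPM at 0.5%. UGP2 rose at 1% by 0.50 on the log2 scale (SE 0.07; 0.17 after the GC and length correction and 0.50 without both second treated libraries, both called) and GYG1 by 0.73 (SE 0.22, adjusted p = 0.0182), a call that was lost without Ctrl library 2 or 3 or 1% library 2 and held at 0.64 without both second treated libraries. PYGB was at -0.64 at 1%, or -0.35 after the GC and length correction and -0.69 without both second treated libraries, both called.

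Between the doses, 3 of the 10 were higher at 1% than at 0.5% (STBD1, GYG1 and UGP2) and 3 were lower (PPP1R3B, GYS1 and PYGB), where 56.0% of all genes were called, 28.3% higher and 27.7% lower. After the GC and length correction PYGB (-0.23) and GYG1 (0.57) lost this call and UGP2 was at 0.23, called. GYG1 (0.61, adjusted p = 0.0421 with all libraries) also lost it with only the groups compared in the fit (0.59), and without 0.5% library 1 (0.39) or 3 (0.50) or 1% library 2 (0.51) or 3 (0.63). Without both second treated libraries 7 of the 10 were called at 0.5% against Ctrl, 10 at 1% against Ctrl and 10 between the doses, against 3, 9 and 6 with all libraries. Of all 17248 genes tested without those libraries 48.7% were called at 0.5%, 67.1% at 1% and 60.4% between the doses, against 39.0%, 62.5% and 56.0% with all libraries. GYG1 at 0.5% had 15.6, 32.1 and 19.4 CPM, and its value turned from 0.12 without a call to -0.24 with one (adjusted p = 0.0455) when those libraries were left out. The 9 luminal markers, which summed to 25084 to 27903 CPM in Ctrl, were at 10854 to 15452 CPM at 0.5% and 3605 to 3850 CPM at 1%. Against Ctrl, 2 of the 9 were called higher and 3 lower at 0.5% (median -0.08 on the log2 scale), and 8 were lower at 1%. Mitochondrial genes took 5.54% to 5.73% of counts in Ctrl, 4.88% to 6.54% at 0.5% and 4.37% to 4.56% at 1%, and the part of these differences in the result was not tested. With library-size scaling 66.0% of the calls at 0.5% and 59.8% at 1% were higher, against 49.7% and 48.3% with TMM, with the median of all genes shifted by 0.12 and 0.18.

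The share of PYGL in the phosphorylase transcripts was lower wherever ZHX2 was targeted. The ratio of PYGL to PYGB within a library does not depend on how libraries are scaled, and per length PYGL made up a lower share of the PYGL and PYGB RPKM in every group with a ZHX2 hairpin or guide and no WT form than in its control. In the shRNA table the share was 3.98% to 5.09% in shZHX2 cells, against 10.4% to 12.0% in hypoxic shCtrl cells, and it was 11.6% to 12.0% in normoxia. In the rescue table it was 13.5% to 14.5% with SA, 12.0% to 13.0% with PA, 29.8% to 31.0% with WT and 10.3% to 10.8% with vector in shZHX2 cells, and 32.0% to 33.2% in shCtrl cells. With guides it was 15.9% to 16.3% in sgZHX2 cells, against 38.8% to 40.6% in sgCtrl cells, and 19.3% to 19.7% in teton_sgZHX2 cells, against 36.9% to 38.6% in teton_control cells. Groups did not overlap in any of these pairs. In the hexanediol table PYGL was the larger part in Ctrl, with 80.9% to 82.5%, and was 32.0% to 68.1% at 0.5% and 26.9% to 45.9% at 1%, the second library being the lowest at each dose. These shares are a description without a test, and the control groups of the 4 tables ranged from 10.4% to 82.5%. The shares carry no GC and length correction, and GC content was 51% for PYGL and 58.5% for PYGB. With that correction the log2 fold changes of PYGL and PYGB were 0.09 and -0.31 in hypoxia, and -0.83 and 0.67 with sgZHX2.

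**Figure D5:**
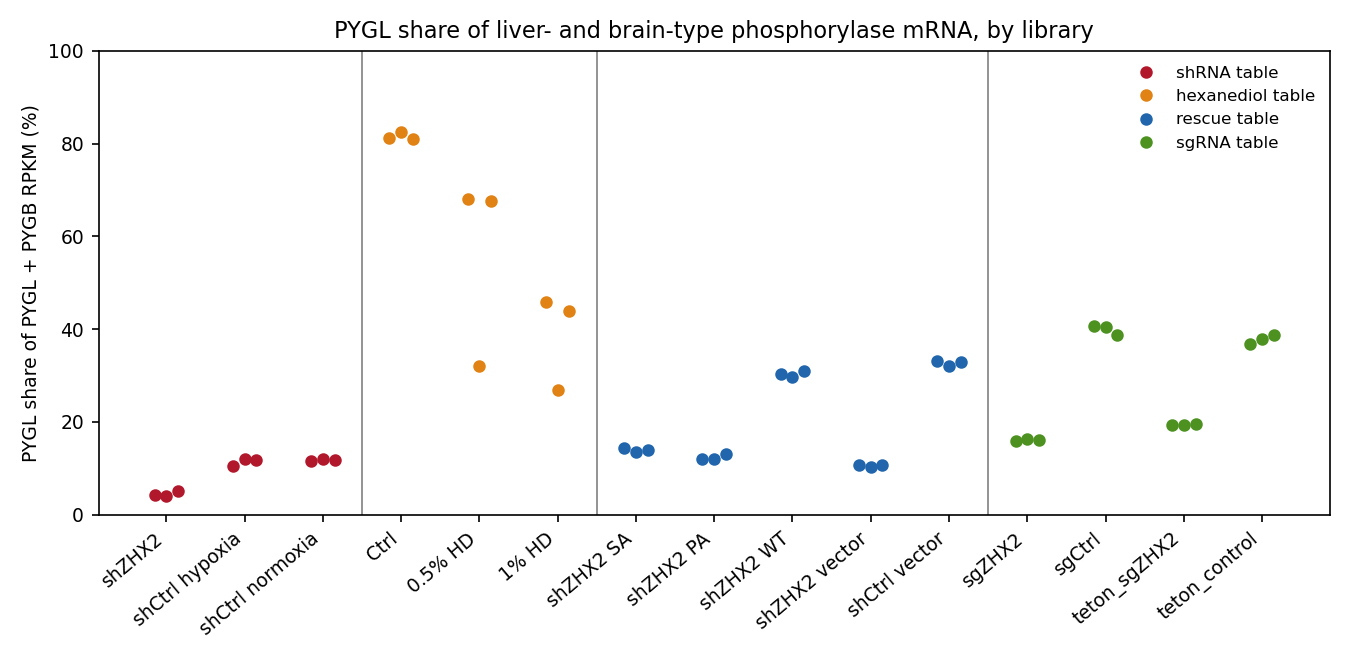
Share of PYGL in the summed RPKM of PYGL and PYGB, in percent, for each of the 45 libraries; vertical lines part the tables, and HD is 1,6-hexanediol. The share with SA and PA (12.0% to 14.5%) lies near that with vector (10.3% to 10.8%), and the share with WT (29.8% to 31.0%) near that of shCtrl cells (32.0% to 33.2%).

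A wider list of 26 further glycogen genes gives the surroundings of the 10; 19 of them were tested in all 4 tables, and GYS2 and PPP1R3A, the liver-type synthase and the muscle targeting subunit, in none. In hypoxia 9 of 22 tested were higher and 10 lower, with a median of -0.02 on the log2 scale, where 79.9% of all genes were called, 43.1% higher and 36.8% lower. PPP1R3G, another targeting subunit, rose by 3.31 (SE 0.40; 1.84 ± 0.351 CPM in hypoxia and 0.177 ± 0.0852 CPM in normoxia), GAA, the lysosomal glucosidase that degrades glycogen, by 1.70 (SE 0.04), and the targeting subunit PPP1R3E by 1.40 (SE 0.23). PHKB, a subunit of the kinase that activates phosphorylase, was at -2.94 (SE 0.12), and PGM2, a phosphomutase related to PGM1, at -2.25 (SE 0.14). PHKB stood at 3.19 ± 0.353 CPM in hypoxia and 24.5 ± 1.83 CPM in normoxia (SD, n = 3 each). The alternatives were run on the 10 genes and not on this list. GC content was 64.1% for GAA, 56.3% for PPP1R3G, 53.2% for PPP1R3E, 40.6% for PHKB and 39.9% for PGM2. Log2 fold changes in hypoxia followed GC content across genes (Spearman 0.694), and the part of this in these values was not tested.

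PPP1CB and PPP1CC, both catalytic subunits of protein phosphatase 1, were lower in shZHX2 cells with vector than in shCtrl cells and higher with WT than with vector. PPP1CB was at 76.7 ± 2.74 CPM in shZHX2 cells with vector and 169.3 ± 2.87 CPM in shCtrl cells (log2 fold change -1.14, SE 0.03), and at 203.8 ± 0.300 CPM with WT (1.41 over vector, SE 0.03). PPP1CC was at 52.8 ± 2.25 CPM in shZHX2 cells with vector and 102.3 ± 3.15 CPM in shCtrl cells (-0.96, SE 0.04), and at 108.9 ± 3.55 CPM with WT (1.05 over vector, SE 0.04). With SA and PA they stayed nearer to vector: PPP1CB was at 104.7 ± 3.81 CPM with SA and 113.1 ± 2.86 CPM with PA, against WT at -0.96 with SA and -0.85 with PA on the log2 scale. PPP1CA, the other catalytic subunit in the list, was lower in both: it was at 505.3 ± 1.27 CPM in shZHX2 cells with vector and 552.4 ± 7.24 CPM in shCtrl cells (-0.13, SE 0.03), and at 483 ± 5.34 CPM with WT (-0.07 over vector, SE 0.03, adjusted p = 0.0232). In the whole wider list, 6 of 21 tested were higher and 13 lower in shZHX2 cells with vector than in shCtrl cells, where 33.9% and 35.3% of all genes were, and 8 were higher and 7 lower with WT than with vector, where 35.1% and 34.6% of all genes were. PPP1CB was also lower in sgZHX2 cells, at 157.4 ± 6.76 CPM, than in sgCtrl cells, at 345.1 ± 9.77 CPM (-1.13, SE 0.03), and PPP1CC was at 115.9 ± 2.45 CPM in sgZHX2 and 199.7 ± 6.27 CPM in sgCtrl cells (-0.78, SE 0.03). In the teton pair PPP1CB was at 184.8 ± 1.42 CPM in teton_sgZHX2 and 316.5 ± 3.15 CPM in teton_control cells (-0.78, SE 0.03), and PPP1CC at 126.8 ± 2.50 CPM in teton_sgZHX2 and 202.4 ± 2.01 CPM in teton_control cells (-0.67, SE 0.03). With shZHX2 in the shRNA table both were lower, PPP1CB by a log2 fold change of -0.95 (SE 0.07) and PPP1CC by one of -1.10 (SE 0.05). PPP1CA was lower there (-0.61, SE 0.03) and higher with guides (0.58 in sgZHX2 and 0.42 in teton_sgZHX2 cells, SE 0.03 each). GC content was 35.5% for PPP1CB, 43.4% for PPP1CC and 61.4% for PPP1CA. Across genes the Spearman correlation of log2 fold change with GC content was 0.563 for sgZHX2 and 0.467 for teton_sgZHX2. It was 0.257 for shZHX2 with vector, -0.382 for WT over vector and -0.222 for shZHX2 in the shRNA table. The part of GC content in these values was not tested.

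Other members of the wider list changed at least 2-fold in some comparisons. Of 22 tested in the shRNA table, 6 were higher and 9 lower with shZHX2 (33.6% and 33.2% of all genes), and PPP1R3E (16.4 ± 1.30 CPM in shZHX2 and 2.48 ± 0.479 CPM in shCtrl cells, log2 fold change 2.73) and PPP1R3F (1.33) rose. With guides 11 of 23 were higher and 9 lower in sgZHX2 cells (37.0% and 36.1% of all genes), and 10 higher and 10 lower in teton_sgZHX2 cells (34.4% and 34.7%). NHLRC1, the ubiquitin ligase malin of Lafora disease, was higher in both (2.32, SE 0.20, and 1.88, SE 0.20), as was PYGM, the muscle phosphorylase (1.16 and 1.50, at levels under 1 CPM). With 1% hexanediol 9 of 23 were higher and 8 lower (30.2% and 32.3% of all genes). PGM2L1, a relative of PGM1 that makes glucose 1,6-bisphosphate, rose by 3.05 on the log2 scale (SE 0.27), the targeting subunit PPP1R3D by 1.58 (SE 0.14) and EPM2A, the glycogen phosphatase laforin, by 1.16 (SE 0.24). GYG2, the other glycogenin, was at -1.05 (SE 0.20), G6PC3, a glucose 6-phosphatase, at -1.22 (SE 0.21) and SLC37A4, the glucose 6-phosphate transporter, at -1.27 (SE 0.09). At 0.5% the count was 5 higher and 4 lower (19.4% and 19.6% of all genes), with NHLRC1 at 1.04 (SE 0.36). Between the doses 7 were higher and 6 lower (28.3% and 27.7% of all genes), with GYG2 at -1.59 and PGM2L1 at 2.61. PA against vector gave 7 higher and 6 lower of 21 (24.7% and 22.9% of all genes), and SA against vector 3 higher and 8 lower (20.2% and 21.5%), with no call of 2-fold in either.

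Over the 45 libraries, the genes with the pattern most like that of PPP1R3C were LOX, a collagen and elastin cross-linking enzyme, GPR146, a G protein-coupled receptor, BNIP3, a mitophagy receptor, SCNN1G, a sodium channel subunit, and NDRG1. Likeness was the root mean square difference of log2 CPM after each table's mean was subtracted, among 12560 genes tested in all 4 tables, and it was 0.644 for LOX, 0.815 for GPR146, 0.831 for BNIP3, 0.835 for SCNN1G and 0.851 for NDRG1. The likeness did not hold in every table. In the hexanediol table mean levels of BNIP3 (228.6 CPM in Ctrl and 152.2 CPM at 1%), SCNN1G (7.03 and 2.66 CPM) and NDRG1 (224.2 and 91.7 CPM) were lower at 1%. Those of PPP1R3C, LOX and GPR146 were higher at 1%. The PPP1R3C values rest on 0 to 156 counts per library, so counting noise is part of these distances.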

How the data were processed

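The deposited tables hold read counts per gene and library; per the submitters' processing notes, the authors used FastQC, HISAT2, featureCounts and DESeq2 with genome build hg38, with no versions and no strand setting given. Of 60624 gene identifiers 60370 could be paired with a symbol and 58437 a GENCODE 29 entry, which gave exon lengths, GC content and positions. Library totals were 14111216 to 27217814 counts. The control columns that the sgRNA table names sgNC were taken as the samples titled sgCtrl, the only guide control without a teton name.

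In R 4.3.3, edgeR 4.0.16 (with limma 3.58.1) was fitted to the deposited counts, one model per table: low-count filter (filterByExpr), TMM scaling, robust quasi-likelihood fit and Benjamini-Hochberg adjustment over all genes tested, 14903 in the shRNA, 16840 in the hexanediol, 14302 in the rescue and 15781 in the sgRNA table. Every adjusted p in the text is from this edgeR test unless DESeq2 is named. SE is the log2 fold change divided by the root of its F statistic. CPM is counts over the library's total in the tested genes times its TMM factor, and RPKM is CPM per kilobase of exon. TMM factors were 0.845 to 0.848 in hypoxic and 1.18 to 1.20 in normoxic shCtrl libraries of the shRNA table. The CPM of the hypoxic libraries is thus raised, relative to the normoxic ones, over plain counts per total. Exact binomial 95% intervals of summed counts cover counting error only. The steps were tested on simulated data.

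The 10 genes, the 26-gene wider list and the tests were chosen with earlier results of these data known. Named are the 10 genes, ZHX2, wider-list genes called at 2-fold or more (1 is not reported here; PPP1CC and PPP1CB are followed into other comparisons after their values were seen), and the 5 genes nearest to PPP1R3C. Alternatives were library-size scaling, no low-count filter, DESeq2 1.42.0, a GC and length correction, a replicate block, that block with the correction, fits of only the groups compared, and leaving out each library; for hexanediol, leaving out both second treated libraries. Of 22 pairs of groups, the 0.5% and 1% hexanediol groups alone had a correlation over 0.1 between the deviations of every same-numbered pair (0.112, 0.305 and 0.108). Correlations between differently numbered libraries were not computed, so this does not establish a pairing. All main fits, those of the hexanediol table included, used group means without pairing, and the replicate block was run only as an alternative. Replicate pairs differed by more than counting noise (chi-square per degree of freedom 1.71 to 25.0 over 45 pairs), so none was merged.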

Additional observations from a re-analysis of the deposited data

Results flagged for a closer look

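In the sgRNA table the effect of sgZHX2 differed from that of teton_sgZHX2, by the edgeR test of the difference of the effects, for GYS1 (0.12 on the log2 scale), GBE1 (-0.21), PYGL (-0.22), PYGB (0.24) and UGP2 (-0.35).

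With shZHX2, PPP1R3C (-3.19), PPP1R3B (-0.56), GBE1 (-0.37) and PYGB (0.64) in the rescue table had calls opposite to those of the shRNA table, where they were at 0.95, 0.88, 0.46 and -0.45; the difference between the tables was not tested.

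PPP1R3B was called higher at 0.5% and lower at 1% hexanediol, and the 1% against 0.5% value was -1.64.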

How the results depend on the processing

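Of 2028 values recomputed for the 10 genes, 1918 kept their side of the threshold and, where called, their direction (39 of these, with no call in either fit, changed sign), 56 lost a call, 40 gained one and 14 turned their sign with a call in at least 1 of the fits; the causes were not tested. With library-size scaling PYGL in hypoxia was at -0.0248, PGM1 with shZHX2 in the shRNA table at 0.18 and PYGB with PA against vector at 0.0090. With the GC and length correction PPP1R3B in hypoxia was at 0.0467, PYGB in hypoxia at -0.306, GYS1 at -0.0345 with sgZHX2 and -0.0374 with teton_sgZHX2, and UGP2 at 0.0576 with teton_sgZHX2. Adding the replicate block to that correction gave 0.0498 for PPP1R3B, -0.306 for PYGB, -0.0345 and -0.0375 for GYS1 and 0.0578 for UGP2. Without both second treated libraries GYG1 at 0.5% hexanediol was at -0.24, 7 of the 10 genes were called at 0.5% (3 with all libraries) and 10 between the doses (6 with all). Leaving out 1 library at a time gave 2 to 5 calls at 0.5%. The GC and length correction left 4 calls for SA against vector (7 before; 4 also with the replicate block) and 3 for the difference of guide effects (5 before; 3 also with the block); over all genes those comparisons had 3768 calls (3730 with the block) against 5964, and 1230 (1194 with the block) against 3206. DESeq2 gave 27.3% of the calls on the difference of guide effects as higher, against 41.0%, and the GC and length correction 30.6%; in hypoxia that correction gave 41.2%. The replicate block alone gave the same number of called members as the fit without it in every comparison except PA against vector, with 7 against 6 (PYGL 0.10, edgeR adjusted p = 0.0482). PPP1R3C limits are set by depth: in the rescue table it had 0 to 18 counts per library. DESeq2 also called PYGL at 0.5% hexanediol (-1.59, adjusted p = 0.0351).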
